A study of Mus musculus with 12 samples.

Results

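The receptor chains for interleukin-4 (IL-4) and the enzymes that act directly on them were measured by RNA sequencing in mouse macrophages cultured out of bone marrow (BMDMs). The set was 10 genes named by symbol, out of the 48526 genes in the table, and was named by function, with earlier results of these data known. It holds the receptor chains *Il4ra*, *Il2rg* and *Il13ra1*, the adaptor *Irs2*, the Janus kinases *Jak1*, *Jak2*, *Jak3* and *Tyk2*, and the phosphatases *Ptpn6* and *Ptpn1*. All 10 passed the filter of at least 10 counts in at least 3 libraries, as did 12421 genes in all.

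BMDMs came from 3 female mice of strain C57Bl/6J, with no genetic change named, and whole bone marrow was grown in medium with macrophage colony-stimulating factor up to day 7, in every group alike. Part of each mouse's cells stayed untreated, and the others received for 16 hr 100 ng/mL Wnt3a, 100 pg/mL IL-4, or both. The labels give no age, and they do not say whether RNA was pooled. The 3 libraries of a group come from different mice, and the main fit held no term for the mouse. The p-values below measure the spread between these libraries, in which mouse and library preparation cannot be told apart.

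The 2 Wnt3a-containing columns of each mouse share reads. Within a mouse, 0 of 48526 genes had a Wnt3a count below 1 or above 2 times that of the combined treatment, whereas 6681 to 8625 genes did when the columns came from different mice. These bounds hold if 1 column is the sum of 2 libraries and the other column is that sum with 1 of the libraries added again. Both libraries were therefore solved for in each mouse. The difference is what the Wnt3a column holds beyond the combined column, and the remainder is what the combined column holds beyond the difference. Under either reading both come from Wnt3a-treated cells, but the labels do not say which of them also received IL-4. Depth was alike, at 13342492 to 17113982 counts per untreated or IL-4 library and 14171994 to 17453377 counts per difference or remainder. Levels are given below as CPM, counts scaled to library size after TMM correction for the makeup of each library, and each call is an edgeR quasi-likelihood test at an adjusted p under 0.05.

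IL-4 binds the α chain encoded by *Il4ra*, which then recruits a partner chain. With the common γ chain, encoded by *Il2rg*, it forms the type I receptor of blood-derived cells, and with the IL-13 receptor α1 chain, encoded by *Il13ra1*, it forms the type II receptor, which also binds IL-13. The chains lack enzyme activity of their own and rely on bound Janus kinases: JAK1 on the α chain, JAK3 on the γ chain, and TYK2 or JAK2 on IL-13Rα1. The kinases phosphorylate docking sites for STAT6, which drives IL-4 target genes in macrophages, and for IRS2, which leads to PI3 kinase. Phosphatases such as SHP-1, encoded by *Ptpn6*, and PTP1B, encoded by *Ptpn1*, remove phosphate from these proteins.

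The upstream promoter sequences of the 4 members that moved most are shown, since these genes changed in different directions and patterns. Each is the 250 bases before the RefSeq start of the gene, 5′ to 3′ on the strand of the gene, on GRCm38.p6. *Il2rg* is read from chrX:101268256-101268505 on the minus strand, *Jak2* from chr19:29251553-29251802 on the plus strand, *Il13ra1* from chrX:36111858-36112107 on the plus strand and *Irs2* from chr8:11008930-11009179 on the minus strand. Capitals mark a GC box (GGGCGG on either strand, also where matches overlap) or an ETS core (CGGAAG on either strand), motifs searched for after the expression values were known.
Il2rg: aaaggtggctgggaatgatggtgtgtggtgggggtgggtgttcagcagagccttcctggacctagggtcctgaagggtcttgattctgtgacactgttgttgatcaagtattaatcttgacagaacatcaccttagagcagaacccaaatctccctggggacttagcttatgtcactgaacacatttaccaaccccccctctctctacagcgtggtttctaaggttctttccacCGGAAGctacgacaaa
Jak2: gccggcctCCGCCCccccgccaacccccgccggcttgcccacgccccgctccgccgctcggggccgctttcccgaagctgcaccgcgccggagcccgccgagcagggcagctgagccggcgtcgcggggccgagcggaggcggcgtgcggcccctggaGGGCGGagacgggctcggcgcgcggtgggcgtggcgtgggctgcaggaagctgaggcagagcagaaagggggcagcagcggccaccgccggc
Il13ra1: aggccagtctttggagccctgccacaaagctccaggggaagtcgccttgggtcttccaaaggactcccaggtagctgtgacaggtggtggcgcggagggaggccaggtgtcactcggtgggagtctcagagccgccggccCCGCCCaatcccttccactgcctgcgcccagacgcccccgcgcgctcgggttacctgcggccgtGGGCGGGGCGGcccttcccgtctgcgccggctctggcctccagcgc
Irs2: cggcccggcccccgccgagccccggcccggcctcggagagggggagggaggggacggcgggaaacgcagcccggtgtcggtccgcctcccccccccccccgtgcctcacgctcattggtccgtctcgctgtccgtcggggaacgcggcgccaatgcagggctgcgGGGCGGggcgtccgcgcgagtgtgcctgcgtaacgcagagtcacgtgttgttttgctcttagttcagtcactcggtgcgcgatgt
The *Il2rg* sequence was 49.2% G and C, near the median of 52.4% over 32851 RefSeq promoters, while *Il13ra1*, *Irs2* and *Jak2* had 70.8%, 72.8% and 80.8%. A GC box was found in the window of 9 of the 10 members, all but *Il2rg*, against 32.7% of all promoters. These promoters were not matched to the members for G and C content or for expression. In *Il4ra* and *Ptpn1*, among others, the window reaches into the gene position given below. The ETS core was found before *Il2rg*, *Jak1*, *Ptpn6* and *Ptpn1*, which makes 4 of 10 members against 13.6% of all promoters. Of the 10 members, 0 held the STAT palindrome TTCNNNGAA (7.02% of all promoters), the STAT6 motif with its longer spacer (5.85%) or the TCF/LEF motif ATCAAAG (3.21%) in this window, nor the IRF consensus (2.98%), the NF-κB consensus (3.9%), the PU.1 motif GAGGAA (23.3%) or TATAAA (12.4%), on either strand. These are matches of letters in a short window, and nothing follows from them about the factors.

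*Il2rg* rose and stood out among the receptor chains in both Wnt3a-treated libraries, while IL-4 alone left it within the spread between libraries. In mouse 1, 2 and 3, it stood at 97.4, 88.7 and 95.5 CPM in untreated BMDMs and at 106, 101 and 88.3 CPM with IL-4. The differences held 279, 251 and 245 CPM, and the remainders 283, 265 and 248 CPM. Every Wnt3a-treated library was above every other library. Against untreated cells the increase was 2.75-fold in the difference (log2 1.46, SE 0.09, adjusted p = 5.4e-08, edgeR) and 2.82-fold in the remainder (log2 1.498, SE 0.09, adjusted p = 2.9e-08). IL-4 alone gave log2 0.07 (95% interval -0.12 to 0.26, adjusted p = 0.80). Between remainder and difference the change was 0.04 on the log2 scale, with a 95% interval of -0.15 to 0.22 (adjusted p = 0.86). The gene lies at chrX:101264378-101268255 (mm10, minus strand), and 30.5% of its exon bases are also annotated to *Gm20489* on the same strand, so reads there cannot be given to 1 of the 2 genes.

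*Il4ra*, which encodes the chain that binds the cytokine, changed less. It was at 133, 165 and 163 CPM in untreated BMDMs of mouse 1, 2 and 3, and at 137, 121 and 131 CPM with IL-4, and these groups overlap. It reached 209, 237 and 228 CPM in the differences and 196, 171 and 201 CPM in the remainders. All 6 Wnt3a-treated libraries were above all untreated and IL-4 libraries, and the differences were above the remainders. The rise against untreated was 1.46-fold in the difference (log2 0.55, SE 0.10, adjusted p = 0.00087, edgeR) and 1.23-fold in the remainder (log2 0.30, SE 0.10, adjusted p = 0.035). The second of these calls did not survive leaving out mouse 1 (log2 0.18, adjusted p = 0.23) or mouse 3 (log2 0.30, adjusted p = 0.23), nor total-count scaling (log2 0.20, adjusted p = 0.074). IL-4 alone gave -0.25 on the log2 scale (95% interval -0.45 to -0.04, adjusted p = 0.24), and remainder against difference also gave -0.25 (95% interval -0.45 to -0.04, adjusted p = 0.17). Against IL-4 alone, *Il4ra* was higher by log2 0.79 in the difference (adjusted p = 3.2e-05) and by 0.55 in the remainder (adjusted p = 0.00095; 0.052 without mouse 3). *Il4ra* lies at chr7:125552120-125579474 (plus strand), and 9.51% of its exon bases overlap *Gm44876* on the other strand.

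*Il13ra1* rose in the difference alone among the 3 comparisons with untreated cells, and was lower in the remainder than in the difference. Its levels were low: untreated libraries of mouse 1, 2 and 3 held 20.0, 12.1 and 16.3 CPM, and IL-4 libraries held 14.3, 14.6 and 10.2 CPM. The differences had 29.7, 25.4 and 24.7 CPM, above every other library, and the remainders had 10.5, 15.4 and 11.9 CPM, which overlap the untreated and IL-4 groups. The difference exceeded untreated by 1.64-fold (log2 0.72, SE 0.19, adjusted p = 0.013, edgeR) and IL-4 by 2.04-fold (log2 1.03, adjusted p = 0.0012). Between remainder and difference the level fell by 1.08 on the log2 scale (SE 0.19, adjusted p = 0.0039), lower in 3 of 3 mice. Leaving out mouse 3 removed the calls, with adjusted p = 0.096 for difference against untreated, 0.052 for difference against IL-4 and 0.14 for remainder against difference. Against untreated cells, the remainder gave -0.36 (95% interval -0.78 to 0.05, adjusted p = 0.19), and -0.69 without mouse 2, which was then called (adjusted p = 0.013). *Il13ra1* lies at chrX:36112110-36171259 (plus strand), and none of its exon bases (0%) are shared with another gene.

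**Figure D1:**
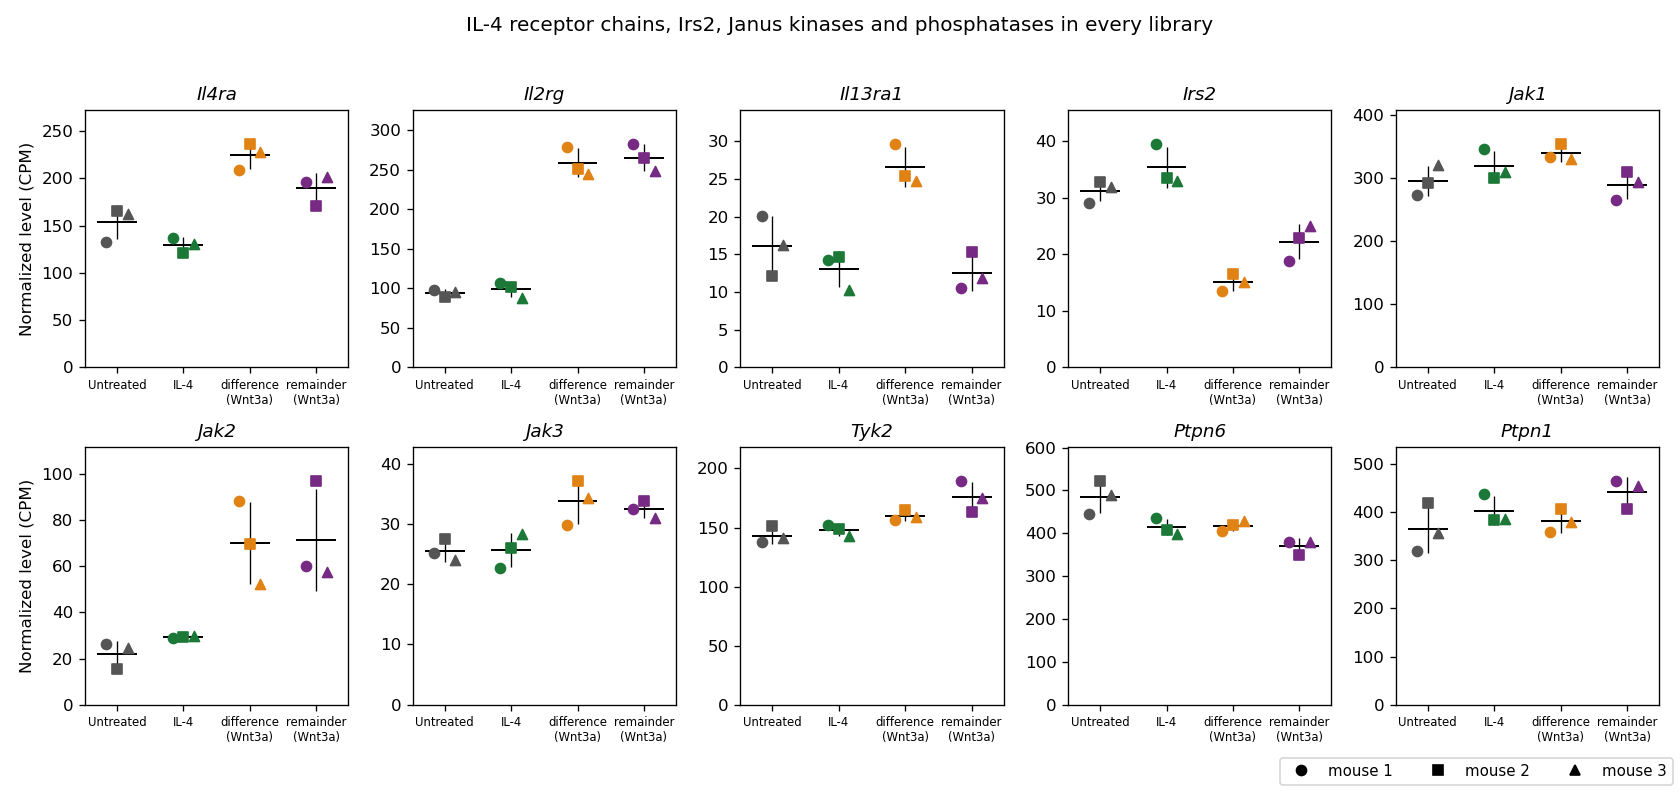
Level of each of the 10 genes in every library, in CPM after TMM scaling with each vertical axis from 0; symbols mark the mouse, horizontal lines the mean and vertical lines the SD of 3 mice. *Il2rg* and *Jak2* are higher in all 6 Wnt3a-treated libraries (differences and remainders) than in the 6 others, *Irs2* is lower in them, and *Il13ra1* is raised in the differences but not in the remainders.

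*Irs2*, the adaptor that links the receptor to PI3 kinase, was the member with the largest fall. Untreated BMDMs of mouse 1, 2 and 3 held 29.1, 32.7 and 32.0 CPM, and IL-4-treated BMDMs 39.6, 33.6 and 33.0 CPM. The differences held 13.5, 16.5 and 15.1 CPM, and the remainders 18.9, 22.9 and 25.0 CPM. The 4 groups did not overlap, and their order from low to high was difference, remainder, untreated, IL-4. Against untreated, *Irs2* fell by 1.06 on the log2 scale in the difference (SE 0.12, adjusted p = 2.7e-05, edgeR) and by 0.49 in the remainder (SE 0.12, adjusted p = 0.0084). It was higher in the remainder than in the difference by log2 0.57 (SE 0.13, adjusted p = 0.017). Without mouse 3, the last 2 of these were not called (adjusted p = 0.067 and 0.39), and remainder against difference was also not called with only these groups in the fit (adjusted p = 0.062). IL-4 alone gave log2 0.18 (95% interval -0.08 to 0.44, adjusted p = 0.56). *Irs2* lies at chr8:10984681-11008458 (minus strand), with 2.56% of its exon bases overlapping a gene on the other strand.

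Among the Janus kinases, *Jak2* rose in both Wnt3a-treated libraries, by more than any other member with all 3 mice in the fit, while *Jak1* was not called in any comparison. In mouse 1, 2 and 3, *Jak2* was at 26.2, 15.5 and 24.5 CPM in untreated and at 28.8, 29.2 and 30.0 CPM in IL-4-treated BMDMs. The differences held 88.1, 69.7 and 52.3 CPM, and the remainders 60.3, 97.0 and 57.4 CPM. All Wnt3a-treated libraries exceeded all others, but they varied more among themselves than those of *Il2rg*. The rise against untreated was 3.17-fold in the difference (log2 1.67, SE 0.23, adjusted p = 0.00012, edgeR) and 3.24-fold in the remainder (log2 1.70, SE 0.23, adjusted p = 8.5e-05). Without mouse 2, the log2 values were 1.47 (adjusted p = 0.00015) and 1.23 (adjusted p = 0.00042), and *Il2rg*, at 1.44 and 1.47, then rose more than *Jak2* in the remainder. Remainder against difference gave 0.03, with a 95% interval of -0.44 to 0.50. IL-4 alone gave log2 0.41 (95% interval -0.09 to 0.91, adjusted p = 0.48), with the 3 IL-4 libraries above the 3 untreated ones. *Jak2* lies at chr19:29251828-29313080 (plus strand), and 0% of its exon bases are shared.

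*Jak1*, the kinase of the α chain, was the most abundant Janus kinase per length and ranged from 264 to 354 CPM over all 12 libraries. Its log2 change against untreated was 0.11 with IL-4 (adjusted p = 0.65), 0.20 in the difference (95% interval 0.01 to 0.39, adjusted p = 0.11) and -0.03 in the remainder (95% interval -0.22 to 0.16, adjusted p = 0.84, edgeR). *Jak3*, the kinase of the γ chain, was at 25.2, 27.5 and 24.0 CPM in untreated BMDMs of mouse 1, 2 and 3, and at 22.7, 26.1 and 28.4 CPM with IL-4. It reached 29.8, 37.1 and 34.2 CPM in the differences and 32.4, 33.9 and 31.0 CPM in the remainders. Each Wnt3a-treated library was above each of the others. *Jak3* rose by log2 0.40 in the difference (SE 0.11, adjusted p = 0.017) and 0.34 in the remainder (SE 0.11, adjusted p = 0.034) against untreated. Neither call held in every fit with a mouse left out, where fewer libraries remain per group. The first was lost without mouse 2 (adjusted p = 0.089) or mouse 3 (0.20). The second was lost whichever mouse was left out, at 0.076, 0.057 and 0.23 without mouse 1, 2 and 3. Total-count scaling also lost both, with adjusted p of 0.061 and 0.13. *Jak1* lies at chr4:101152367-101265282 (minus strand) and *Jak3* at chr8:71676296-71690575 (plus strand), where *Insl3*, on the same strand, shares 7.55% of the exon bases of *Jak3*.

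*Tyk2*, a kinase that binds IL-13Rα1, was called higher against untreated cells in the remainder. Its levels in mouse 1, 2 and 3 were 137, 151 and 141 CPM in untreated BMDMs and 152, 148 and 143 CPM with IL-4. They were 157, 164 and 159 CPM in the differences and 189, 163 and 175 CPM in the remainders. All 6 Wnt3a-treated libraries were above the other 6. The remainder was above untreated by log2 0.30 (SE 0.07, adjusted p = 0.0078, edgeR), and the difference by 0.16 (95% interval 0.0047 to 0.32, adjusted p = 0.13). Remainder against difference gave 0.14 (95% interval -0.02 to 0.29, adjusted p = 0.33). The *Tyk2* call was lost without mouse 1 (log2 0.21, adjusted p = 0.092) or mouse 3 (log2 0.30, adjusted p = 0.15). *Tyk2* lies at chr9:21104068-21131243 (minus strand), with 8.07% of its exon bases overlapping a gene on the other strand.

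The phosphatases moved little. *Ptpn6* was at 445, 522 and 489 CPM in untreated BMDMs of mouse 1, 2 and 3, at 435, 408 and 399 CPM with IL-4, at 405, 420 and 429 CPM in the differences and at 381, 349 and 380 CPM in the remainders. All 9 treated libraries were below all 3 untreated ones. *Ptpn6* fell by 0.39 on the log2 scale in the remainder (SE 0.08, adjusted p = 0.0018, edgeR), while IL-4 alone gave -0.23 (adjusted p = 0.15) and the difference -0.22 (adjusted p = 0.059). The remainder call was lost without mouse 2 (adjusted p = 0.052) or mouse 3 (adjusted p = 0.064). Scaling by total counts called IL-4 alone (adjusted p = 0.0096) and the difference (adjusted p = 0.0011) lower as well, and DESeq2 also called the difference lower (adjusted p = 0.041). *Ptpn1* ranged from 319 to 464 CPM over the 12 libraries, with groups that overlap. Its log2 values against untreated were 0.14 with IL-4 (adjusted p = 0.59), 0.06 in the difference (adjusted p = 0.70) and 0.28 in the remainder (adjusted p = 0.062). Without mouse 2, the remainder was called higher in *Ptpn1* (log2 0.46, adjusted p = 0.0063), and DESeq2 called it as well (adjusted p = 0.038). *Ptpn6* lies at chr6:124720707-124738714 (minus strand, 6.96% of exon bases overlapped from the other strand) and *Ptpn1* at chr2:167932057-167979385 (plus strand).

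Counted over the set, IL-4 alone called 0 of the 10 members with edgeR, against 3.40% of all tested genes (2.31% higher and 1.09% lower), with 2 members at an unadjusted p under 0.05 and 0 called by DESeq2. In the difference against untreated, 6 of 10 were called, 5 higher (*Il2rg*, *Il4ra*, *Il13ra1*, *Jak2*, *Jak3*) and 1 lower (*Irs2*), against 23.2% of all genes (11.8% higher and 11.4% lower). The remainder against untreated gave 7 of 10, 5 higher (*Il2rg*, *Il4ra*, *Jak2*, *Jak3*, *Tyk2*) and 2 lower (*Irs2*, *Ptpn6*), against 25.3% of all genes (13.6% higher and 11.7% lower). The median log2 change of the members was 0.30 in the difference and 0.29 in the remainder, where all tested genes had -0.01 and -0.02. Both comparisons use the same untreated libraries and so are not independent of each other. Leaving out mouse 3 reduced the counts to 4 (*Il2rg*, *Il4ra*, *Jak2*, *Irs2*) and 2 (*Il2rg*, *Jak2*), and leaving out mouse 1 reduced the second to 4. Over all genes, leaving out mouse 3 lowered the number called in the remainder from 3137 to 1375. In bulk RNA, a change in the share of cells that carry a transcript cannot be told apart from a change in its amount per cell.

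**Figure D2:**
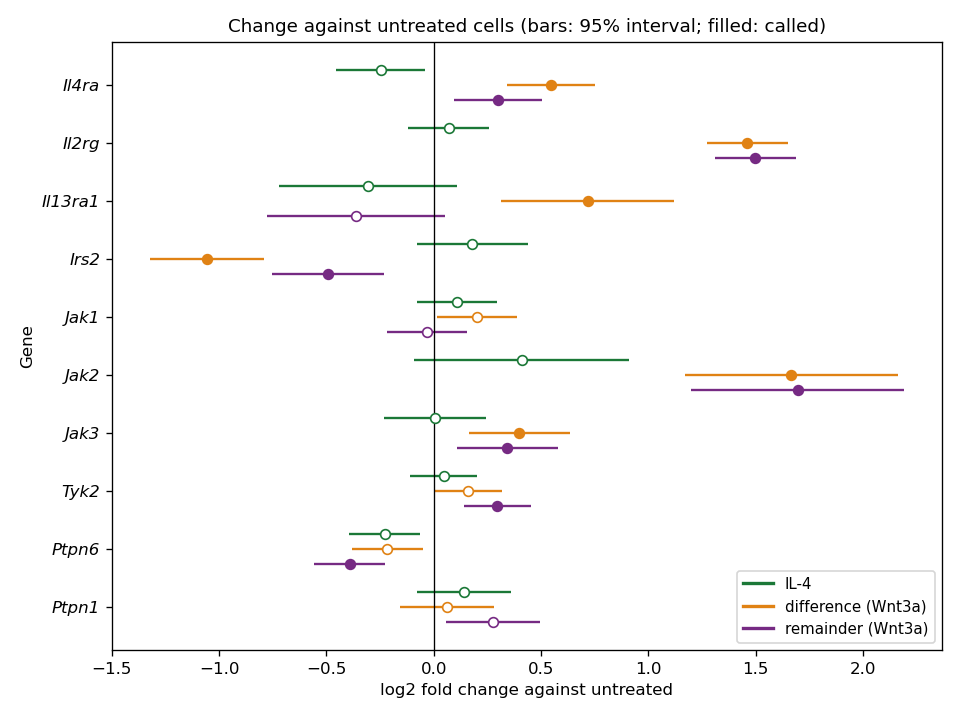
Log2 fold change of each gene against untreated BMDMs for IL-4 alone, the difference and the remainder, with 95% intervals from edgeR; filled points are called at an adjusted p under 0.05. No IL-4 point is filled, *Il2rg* and *Jak2* lie near 1.5 and 1.7 in both Wnt3a-treated groups, and *Irs2* lies at -1.06 and -0.49.

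Set against IL-4 alone in place of untreated, much the same members were called. The remainder gave 6 of 10, *Il2rg*, *Il4ra*, *Jak2*, *Jak3* and *Tyk2* higher and *Irs2* lower, where 20.3% of all genes were called (10.6% higher and 9.67% lower). The difference also gave 6 of 10, with *Il13ra1* in place of *Tyk2*, where 20.3% of all genes were called (10.0% higher and 10.3% lower). *Il2rg* was higher by log2 1.43 in the remainder (adjusted p = 7.5e-08, edgeR) and 1.39 in the difference (adjusted p = 6.5e-08). *Jak2* was higher by 1.29 (adjusted p = 0.00095) and 1.26 (adjusted p = 0.00097). *Irs2* fell by 0.67 (adjusted p = 0.0012) and by 1.24 (adjusted p = 5.4e-06). Without mouse 3, the remainder kept 3 calls, *Il2rg*, *Jak2* and *Irs2*.

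Per exon length, the order of the members differed between the groups. In untreated BMDMs, *Ptpn6* had the highest level (173 ± 13.9 CPM per kb, SD, n = 3), followed by *Ptpn1* (65.9 ± 9.13), *Jak1* (40.8 ± 3.33) and *Il2rg* (39.3 ± 1.92), of which the last 2 overlapped. *Il4ra* followed at 25.6 ± 2.98 and *Tyk2* at 20.8 ± 1.01 CPM per kb. *Irs2*, *Jak3*, *Jak2* and *Il13ra1* lay between 4.35 and 4.95 CPM per kb, and each overlapped the next. In the differences and remainders *Il2rg* ranked second, at 108 ± 7.63 and 111 ± 7.23 CPM per kb, above *Ptpn1* in every library. This rank rests on the full exon length of *Il2rg*. A computation added after seeing the data divided the same counts by the length of exon bases that no gene shares on the same strand. It put *Il2rg* at 156 (148 to 168) and 160 (150 to 170) CPM per kb, with *Ptpn6* at 149 ± 4.21 and 132 ± 6.47. Reads on shared bases were not removed. These values therefore hold only if counting had left such reads out, which is not known here, and are too high otherwise. If bases shared with either strand are left out, *Ptpn6* stood at 160 ± 4.52 and 142 ± 6.95, so that the order of the 2 genes in the differences turned with the length used. *Jak2* was above *Jak3* with IL-4 alone, at 5.84 ± 0.12 against 4.80 ± 0.53 CPM per kb with no overlap, and stood at 13.9 ± 3.56 and 14.2 ± 4.39 CPM per kb in the differences and remainders. *Irs2* became the lowest of all in the differences (2.38 ± 0.24).

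**Figure D3:**
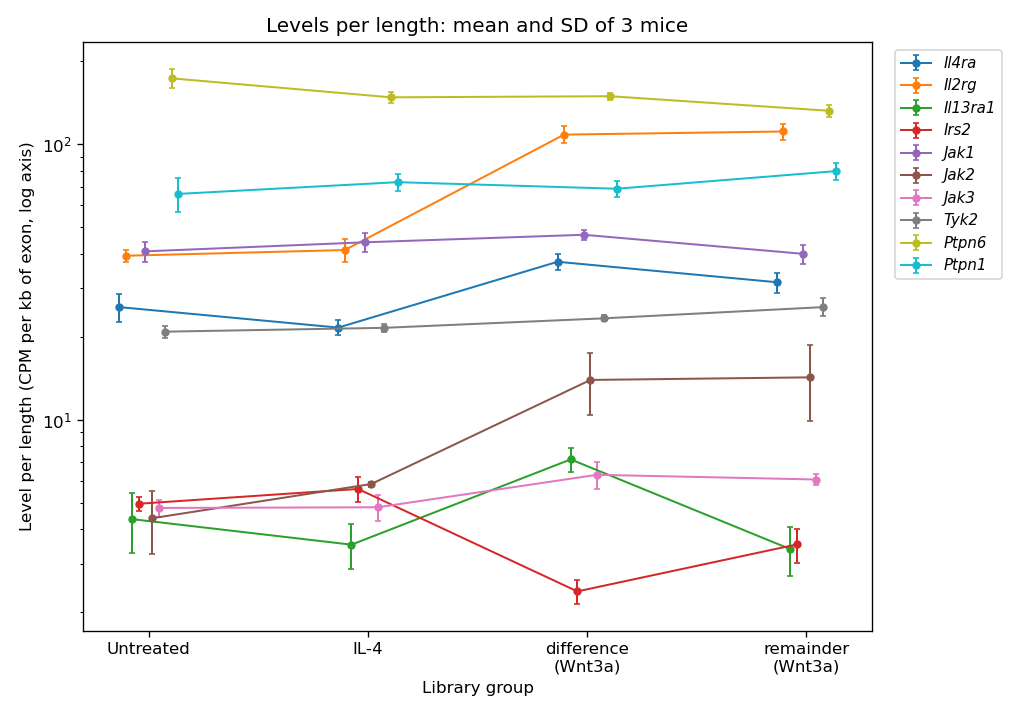
Mean level per length of each gene (CPM per kb of exon, log axis) in the 4 library groups, with the SD of 3 mice; points are shifted sideways so that they can be told apart. *Il2rg* crosses above *Jak1* and *Ptpn1* in both Wnt3a-treated groups, and *Jak2* leaves the group of low genes it shares with *Jak3*, *Irs2* and *Il13ra1* in untreated cells.

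Ratios between members were computed per length within each library. The ratio of *Il2rg* to *Il4ra* per length was 1.56 ± 0.25 (SD, n = 3) in untreated BMDMs, 1.92 ± 0.20 with IL-4, 2.91 ± 0.39 in the differences and 3.54 ± 0.40 in the remainders. Its highest value without Wnt3a was 2.10 and its lowest with Wnt3a was 2.67. The ratio of *Il13ra1* to *Il2rg* per length was 0.11 ± 0.022 in untreated BMDMs, 0.0848 ± 0.0094 with IL-4, 0.0661 ± 0.0020 in the differences and 0.0307 ± 0.0067 in the remainders. *Jak2* stood at 0.108 ± 0.031 of *Jak1* per length in untreated BMDMs and at 0.297 ± 0.077 and 0.354 ± 0.088 in the differences and remainders. These ratios repeat the changes of single members and were not tested. They use full exon lengths, so their size depends on the shared bases of *Il2rg*, by the same factor in each group.

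The remaining question was whether Wnt3a changed the effect of IL-4 on the members. Since the labels leave the identity of difference and remainder open, the interaction was fitted for both readings. With the remainder read as Wnt3a+IL-4, 0 of 10 members were called by edgeR and 0 by DESeq2, with 3 at an unadjusted p under 0.05, where 0.105% of all genes were called (0.0403% higher and 0.0644% lower). With the difference read as Wnt3a+IL-4, 4 of 10 were called, where 7.33% of all genes were called (2.91% higher and 4.42% lower). Under that second reading, the log2 interaction was 1.39 for *Il13ra1* (SE 0.27, adjusted p = 0.0051), -0.75 for *Irs2* (SE 0.17, adjusted p = 0.017), 0.49 for *Il4ra* (SE 0.14, adjusted p = 0.041) and 0.40 for *Ptpn6* (SE 0.11, adjusted p = 0.036). With the mouse as a block, *Il4ra* (adjusted p = 0.065) and *Ptpn6* (adjusted p = 0.071) were not called. Each of these calls was also lost in at least 1 fit with a mouse left out, where fewer libraries remain per group. Without mouse 1, *Il13ra1* was not called (adjusted p = 0.061). Without mouse 2, *Il4ra* (adjusted p = 0.28) and *Ptpn6* (adjusted p = 0.22) were not called, and *Ptpn1* was called lower. Without mouse 3, 0 of these 4 were called. *Il2rg* had an interaction of -0.03 (95% interval -0.29 to 0.23) under the first reading and -0.11 (95% interval -0.37 to 0.15) under the other.

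Directly between remainder and difference, 2 of 10 members were called, *Il13ra1* lower and *Irs2* higher, where 5.25% of all genes were called (2.87% higher and 2.38% lower). Of 8 IL-4 response genes, 4 were higher in the remainder than in the difference (*Arg1*, *Mrc1*, *Ccl22* and *Mgl2*) and 0 lower, and the other 4 were not called. Against untreated, 5 of the 8 were higher with IL-4 alone (3.40% of all genes called), 6 were higher and 0 lower in the remainder (25.3%), and 1 was higher and 2 lower in the difference (23.2%). *Mrc1*, the mannose receptor, was at 47.9, 36.4 and 66.8 CPM in untreated BMDMs, 206, 191 and 270 CPM with IL-4, 27.9, 22.5 and 35.0 CPM in the differences and 133, 153 and 142 CPM in the remainders. *Arg1*, arginase 1, had 0 to 2 counts in the untreated libraries, 19 to 26 with IL-4, 0 to 1 in the differences and 97 to 402 in the remainders. Other genes of the list had other patterns, and a pair of them is named here after their values were seen. *Retnla*, which encodes RELMα, had 535 to 781 counts with IL-4 but 0 to 1 in untreated, difference and remainder libraries alike. *Ccl22*, a chemokine gene, had 4 to 8 counts in untreated libraries, 17 to 58 with IL-4, 88 to 461 in the differences and 508 to 1346 in the remainders, and its rise was called in the difference (log2 5.33, adjusted p = 0.00014, edgeR) and in the remainder (log2 7.22, adjusted p = 4.3e-06). These values stand beside the labels and were not used to assign the libraries.

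**Figure D4:**
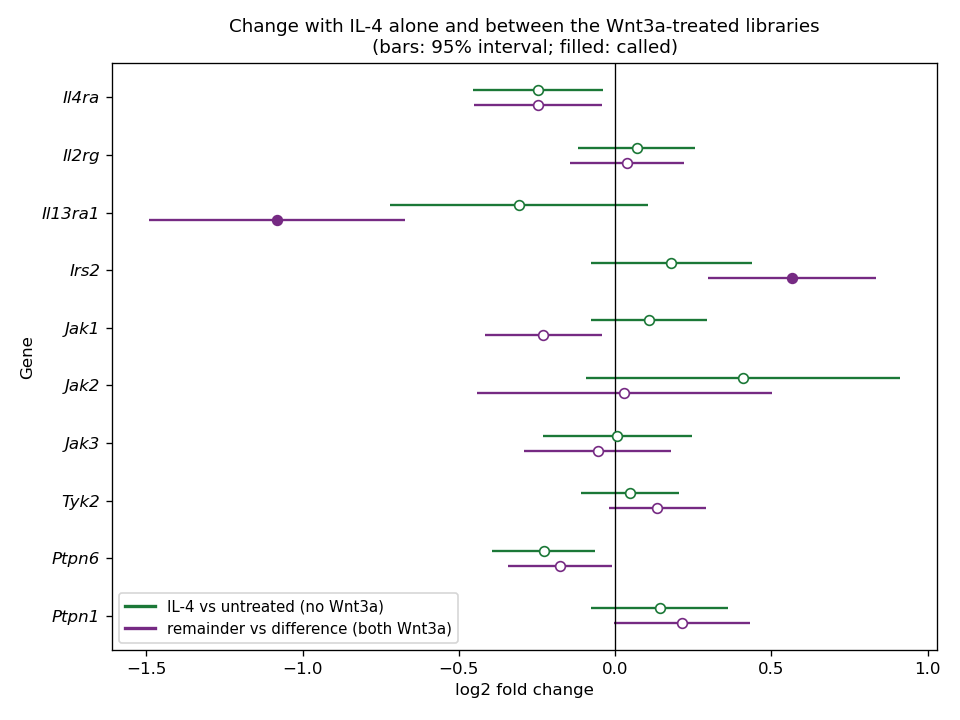
Log2 fold change of each gene with IL-4 alone against untreated BMDMs, and between remainder and difference, both from Wnt3a-treated BMDMs; bars are 95% intervals from edgeR and filled points are called. Only *Il13ra1* (-1.08) and *Irs2* (0.57) are called between remainder and difference, and no gene is called with IL-4 alone.

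Other genes of the IL-4 pathway, 29 in a list of ligands, adaptors, STAT6 cofactors, phosphatases and feedback inhibitors, were read from the same fit, and 26 were tested. IL-4 alone called 2 higher and 0 lower (3.40% of all genes called), the difference 6 higher and 2 lower (23.2%), and the remainder 6 higher and 4 lower (25.3%), with a median log2 change of 0.06, 0.02 and -0.07. *Stat6*, the transcription factor activated by this receptor, had means of 363, 352, 337 and 323 CPM in untreated, IL-4, difference and remainder libraries and was not called against untreated (adjusted p from 0.14 to 0.86).
*Cish*, which blocks STAT docking, rose by log2 1.93 in the difference (adjusted p = 0.00038, edgeR) and 3.33 in the remainder (adjusted p = 1.4e-06). Its 12 libraries held 1.34, 1.22 and 1.25 CPM in untreated BMDMs, 1.68, 1.85 and 2.09 CPM with IL-4, 7.21, 3.66 and 3.64 CPM in the differences and 17.1, 10.6 and 11.1 CPM in the remainders. *Socs1*, an inhibitor of JAK1 and JAK2, rose by 1.23 in the difference (adjusted p = 0.0073; 0.10 without mouse 3) and 3.15 in the remainder (adjusted p = 1.3e-06). *Socs3* rose by 1.88 in the difference (adjusted p = 2e-05) and 1.61 in the remainder (adjusted p = 6.7e-05). *Socs2* rose by 1.69 in the difference (adjusted p = 0.0057; 0.098 without mouse 2) and 2.46 in the remainder (adjusted p = 0.00019), at means of at most 3.19 CPM. *Parp14*, a cofactor of STAT6 that is named here after its values were seen, rose by 1.199 in the difference (adjusted p = 0.00015) and 0.90 in the remainder (adjusted p = 0.0013).

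Some partners moved the other way. *Socs5*, another member of the SOCS family, rose by log2 0.37 with IL-4 alone (adjusted p = 0.041, edgeR) and fell by 0.37 in the difference (adjusted p = 0.0095) and by 0.40 in the remainder (adjusted p = 0.0057). None of the 3 *Socs5* calls held without mouse 3, where the adjusted p was 0.52, 0.16 and 0.14. The call with IL-4 alone was kept in only 4 of 9 alternatives, against 9 of 10 for the difference and 9 of 10 for the remainder. *Dok2*, an adaptor that dampens kinase signaling, rose by 0.94 with IL-4 alone (adjusted p = 4e-05) and fell by 0.44 in the difference (adjusted p = 0.0037; 0.073 without mouse 3). *Pik3cg*, a catalytic subunit of PI3 kinase, fell by 0.57 in the remainder (adjusted p = 0.0036; 0.086 without mouse 3). The ligand gene *Il4* was at 15 to 40 counts per library, and fell by 0.70 in the remainder at an adjusted p that rounds to 0.05. That call was lost under 8 of 10 alternatives. The genes of the other ligand and of the decoy receptor, *Il13* and *Il13ra2*, had 0 or 1 counts in every library and were not tested. A count of 0 allows up to 3 counts in a library.

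**Figure D5:**
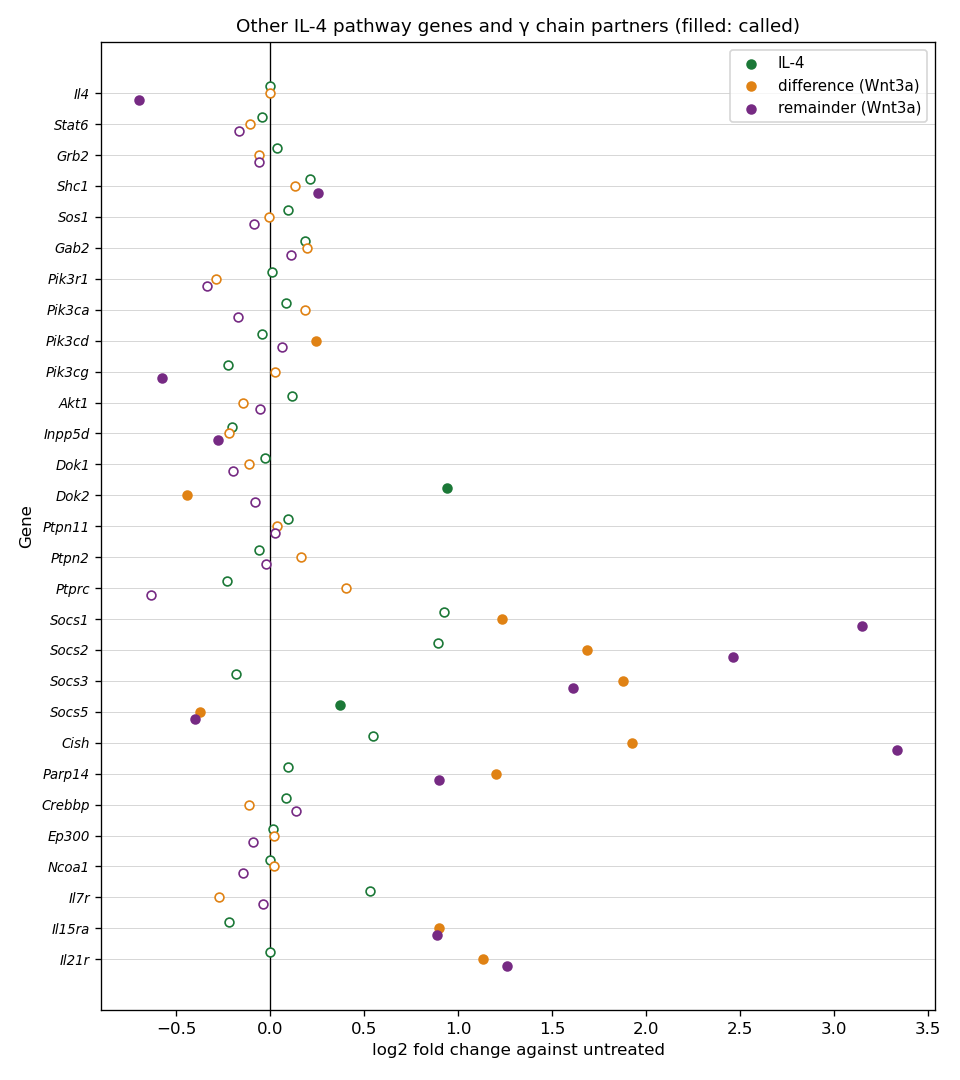
Log2 fold change against untreated BMDMs of the 26 tested IL-4 pathway genes and of 3 tested partners of the common γ chain, for IL-4 alone, the difference and the remainder; filled points are called by edgeR at an adjusted p under 0.05. *Cish* and *Socs1* lie farthest to the right in the remainder (3.33 and 3.15), *Socs3* and *Cish* in the difference (1.88 and 1.93), and *Stat6* lies near 0 in each.

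The γ chain also serves the receptors for IL-2, IL-7, IL-9, IL-15 and IL-21, and 3 of the 6 partner genes were tested. *Il21r* rose with *Il2rg*, at 40.3, 42.6 and 43.3 CPM in untreated BMDMs, 43.4, 44.0 and 38.5 CPM with IL-4, 92.4, 95.4 and 88.8 CPM in the differences and 112, 91.4 and 99.1 CPM in the remainders. Its change was log2 1.13 in the difference (adjusted p = 4.5e-07, edgeR) and 1.26 in the remainder (adjusted p = 1.4e-07). *Il15ra* rose by 0.90 (adjusted p = 0.0052; 0.055 without mouse 2) and 0.89 (adjusted p = 0.0049; 0.059 without mouse 2). *Il7r* was not called against untreated, with log2 0.53 for IL-4 alone (adjusted p = 0.068). *Il2ra*, *Il2rb* and *Il9r* had between 0 and 4 counts in each library.

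The tested genes closest in pattern to 4 of the members were found by the root-mean-square difference of gene-centred log2 CPM over the 12 libraries, among 8461 candidates. For *Il4ra* they were *Def8* (0.088), *Ncf1* (0.10) and *Ift122* (0.10). For *Il2rg* they were *Sod2*, *Stat2* and *Ly6e*, each at 0.12. The closest to *Il13ra1* were *St18* (0.17), *Atp8b4* (0.18) and *Tank* (0.21), and those to *Jak2* were *Slfn5* (0.27), *Ifi211* (0.27) and *Dck* (0.28). The 12 libraries share 4 treatments and 3 mice, so this likeness is a description.

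Markers of macrophages were present throughout, with 8 of 8 tested and a summed level of 43979 to 68614 CPM. Most of this sum was *Lyz2*, whose group means ran from 37888 CPM with IL-4 to 52985 CPM in the differences. Of these 8, 4 were higher in the difference (*Adgre1*, *Fcgr1*, *Itgam* and *Cd14*) and 2 in the remainder (*Fcgr1* and *Itgam*) against untreated, where 23.2% and 25.3% of all genes were called. With IL-4 alone 1 was called, *Cd14*, which fell by 0.51 on the log2 scale (adjusted p = 0.0017, edgeR). The 8 lymphocyte markers summed to at most 0.591 CPM in any library, with *Ncr1* at 0 in all 12, and the 5 mast cell and basophil markers to at most 0.55 CPM, with *Ms4a2*, *Fcer1a* and *Tpsb2* at 0. The 7 neutrophil and precursor markers summed to 39.3 to 49.3 CPM in untreated BMDMs, 51.2 to 60.8 with IL-4, 28.9 to 45.6 in the differences and 26.2 to 30.4 in the remainders. The 6 stromal markers summed to 5.74 to 30.1 CPM. The part of other cell types in the changes of the members was not tested.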

How the data were processed

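RNA of BMDMs from 3 mice under 4 conditions was sequenced as single reads, and 12 count columns were used, with 0 columns left out. Per the submitters' processing notes and the study's methods, the authors checked reads with FastQC 0.11.7, trimmed adapters by Trimmomatic 0.36, mapped the reads on mm10 by STAR 2.6.0, indexed with SAMtools 1.9, and deposited raw HTSeq 0.11.1 counts per gene without normalization. Their own tests used DESeq2 1.24.0. Whether counting used strand is not given in the sources used here. Symbols were matched to 48058 of 48526 Ensembl identifiers. Gene positions and exon overlaps came from GENCODE vM21.

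Difference and remainder libraries were solved per gene and mouse from the 2 Wnt3a-containing columns. Genes reaching 10 counts or more in 3 or more of the 12 libraries were fitted in 1 edgeR 4.0.16 model (R 4.3.3) with TMM scaling, the quasi-likelihood test and Benjamini-Hochberg adjustment over 12421 genes at 0.05. Intervals are 95% from the fitted standard error. The code was tested on simulated data. Alternatives were DESeq2 size factors, total-count scaling, DESeq2 1.42.0, no filter, only the groups compared, the deposited columns, each mouse left out, and the mouse as block. The labels pair the samples by mouse. Deviations of same-mouse libraries from their group means correlated between -0.42 and 0.45 in 18 pairs, 6 of them over 0.1. Depth limits genes at few counts, and a count of 0 allows up to 3 counts. The members, gene lists and comparisons were chosen with earlier results of these data known. Named genes are the 10 members, *Stat6*, the ligands, the 3 highest and 3 lowest called pathway genes per comparison with untreated, the tested γ chain partners, *Arg1* and *Mrc1*, and the 3 nearest genes in pattern to 4 members with a mean of at least 8 CPM. Markers of other cell types are named by list, and the value of a lymphocyte marker is not reported here. Promoters were read from a RefSeq table (GRCm38.p6), which matched 10 of 10 members.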

Additional observations from a re-analysis of the deposited data

Results flagged for a closer look

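Under 1 of the 2 readings, with the difference as Wnt3a+IL-4 and the remainder as Wnt3a, the interaction test of edgeR called 4 of the 10 members. That test compares the effect of IL-4 with Wnt3a to its effect without Wnt3a. The log2 interaction was 1.39 for *Il13ra1* (adjusted p = 0.0051), -0.75 for *Irs2* (adjusted p = 0.017), 0.49 for *Il4ra* (adjusted p = 0.041) and 0.40 for *Ptpn6* (adjusted p = 0.036). With the remainder read as Wnt3a+IL-4, the values were -0.77 for *Il13ra1* (adjusted p = 0.27), 0.39 for *Irs2* (adjusted p = 0.38), -6.3e-05 for *Il4ra* (adjusted p = 1) and 0.05 for *Ptpn6* (adjusted p = 0.90), and 0 members were called. The 4 calls therefore exist under 1 of the 2 readings. With the difference read as Wnt3a+IL-4, 7 of 8 IL-4 response genes were also called, all lower (7.33% of all genes called). With the remainder read so, 0 of the 8 were called (0.105%). Directly between remainder and difference, 4 of these 8 genes were higher in the remainder and 0 lower (5.25% of all genes called). Without mouse 1, *Il13ra1* was not called (adjusted p = 0.061), and without mouse 2, *Il4ra* (0.28) and *Ptpn6* (0.22) were not. Without mouse 3, 0 of them were called, with adjusted p of 0.17, 0.26, 0.38 and 0.45 for *Il13ra1*, *Irs2*, *Il4ra* and *Ptpn6*.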

How the results depend on the processing

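The number of members called stayed within 1.5 times under most alternatives. Several fits with a mouse left out were exceptions, and their ranges are given below. With all mice, IL-4 against untreated was an exception, where total-count scaling called 1 (*Ptpn6*, lower) and no filter called 1 (*Jak2*, higher). Remainder against difference with only these groups (1) was another. So were the interaction with the remainder as Wnt3a+IL-4 without filter (1, *Il13ra1*), and the other interaction with the mouse as replicate block (2, with *Il4ra* and *Ptpn6* lost). The block changed no other call of a member. Leaving out each mouse gave 0 to 0 members for IL-4, 4 to 6 for the difference and 2 to 7 for the remainder against untreated, 0 to 2 for remainder against difference, 3 to 5 and 4 to 6 for remainder and difference against IL-4, and 0 to 0 and 0 to 3 for the interactions. Over all genes, these ranges were 77 to 296, 1220 to 2117, 1375 to 3807, 97 to 1188, 1043 to 2499, 1208 to 2289, 0 to 34 and 265 to 1459, where all mice gave 422, 2884, 3137, 652, 2521, 2519, 13 and 910. Without a filter, IL-4 called 812 genes, remainder against difference 1454 and the interactions 575 and 1505. DESeq2 called 165 genes in the first interaction, and only the groups compared gave 422 genes between remainder and difference. The cause of these shifts was not tested. With only the groups compared, *Il4ra* (adjusted p = 0.091) and *Jak3* (0.054) were not called in the remainder against untreated, nor *Jak3* (0.06) and *Tyk2* (0.064) in the remainder against IL-4.

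Total-count scaling moved the median log2 change of all genes against untreated to -0.10 for the difference and -0.13 for the remainder. Signs turned in members that were not called: with IL-4, *Jak3* (-0.043, and -0.0019 without filter) and *Tyk2* (-0.0069), in the difference *Ptpn1* (-0.023), against IL-4 *Ptpn6* (-0.021), and in the first interaction *Il4ra* (0.032, and 0.0084 without filter) and *Il2rg* (0.0070). The deposited Wnt3a+IL-4 column gave 0.26 for *Il13ra1* and 0.075 for *Jak1* against untreated; the Wnt3a column gave 0.42 for *Il13ra1* (adjusted p = 0.063). These columns mix both libraries by construction. With each mouse left out, the IL-4 value ranged from -0.00048 to 0.14 for *Il2rg*, -0.0037 to 0.18 for *Jak1*, -0.12 to 0.087 for *Jak3* and -0.0014 to 0.27 for *Ptpn1*. Remainder against untreated ranged from -0.076 to 0.028 for *Jak1*, and remainder against difference from -0.24 to 0.34 for *Jak2* and -0.14 to 0.00046 for *Jak3*. Against IL-4, the remainder ranged from -0.14 to 0.12 for *Il13ra1*, and the difference from -0.013 to 0.064 for *Ptpn6* and -0.15 to 0.021 for *Ptpn1*. The first interaction ranged from -0.053 to 0.056 for *Il4ra*, -0.091 to 0.033 for *Il2rg* and -0.22 to 0.11 for *Jak3*, and the second from -0.91 to 0.041 for *Jak2* and -0.041 to 0.14 for *Jak3*. The list of pathway genes, recomputed after seeing the data, gave 4 and 5 calls in place of 8 and 10 without mouse 3, and 1 in place of 2 for IL-4 without mouse 2 or 3. *Il13ra1*, at 142 to 519 counts per library, was the member with the lowest depth.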
